A study of Mus musculus with 48 samples.

Results

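The 35 genes described here carry the cell through its division cycle, and they were taken by name from the 24973 genes of the deposited expression table, in which all 35 were found. They fall into 14 mitotic and proliferation marker genes, 9 genes of G1 and the G1/S step and 12 genes of replication licensing and DNA synthesis. The names were given in advance and no measured value chose them, although they were proposed with earlier results of these data known. Their RNA was measured by bulk RNA-Sequencing in 48 libraries from the 4 major cell types of the neurovascular unit (NVU), which were endothelial cells, pericytes, astrocytes and microglia. Wild-type male C57BL/6 mice aged 12 to 15 weeks had undergone transient occlusion of the right middle cerebral artery (tMCAO) for 60 min, and tissue was taken 24 h after the occlusion. The ipsilateral (ischemic) hemisphere was compared with the contralateral hemisphere of the same animals, so that the control had also been through the surgery and the anesthesia, and no sham-operated brain is among the libraries. Each of the 6 replicates was a pool of the cerebra of 3 to 4 mice with moderate to severe deficits, and each of the 8 groups had 6 libraries. Microglia were sorted as CD45 low and CD11b positive cells, and the other cells came from the CD45 negative fraction, as ACSA2 high cells without NG2, PDGFRβ or VE-cadherin (astrocytes), as VE-cadherin positive cells without ACSA2, NG2 or PDGFRβ (endothelial cells) and as NG2 and PDGFRβ double positive cells without ACSA2 or VE-cadherin (pericytes).

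Entry into the cell cycle begins when D cyclins bind the kinases CDK4 and CDK6 and release E2F transcription factors from the retinoblastoma protein. E2F then drives the genes for cyclin E, for the loading of the MCM helicase onto replication origins and for the supply of nucleotides, whereas the mitotic genes follow later and depend on B-MYB, FOXM1 and the DREAM complex. Most endothelial cells, pericytes, astrocytes and microglia of the adult brain rest outside the cycle, microglia keep themselves by slow division, and glial cells can divide after ischemia.

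The values are normalized counts, that is, reads per gene divided by a library size factor, and they were rounded to whole numbers before deposition. The spacing of the low values put the depth at about 4900000 to 17100000 reads on genes per library, with a median of 11850000, so that 3 reads were worth at most 7.1 normalized counts in any library. Names of 12 libraries disagreed between label fields, because the titles of the ipsilateral pericyte and microglial libraries name the other of these 2 cell types. The cell type named with the table columns was used, and all 16 markers of the 4 cell types (such as Cldn5, Pdgfrb, Aqp4 and Tmem119) were higher in every library of their own cell type than in any other library. A pair of libraries stood apart in correlation and mitochondrial reads. Ipsilateral microglia replicate 2 correlated with its group at a mean r of 0.846 (0.892 to 0.918 for the other 5) and had 3.7% mitochondrial reads (0.7% to 1.2%), and contralateral endothelial cells replicate 2 had a mean r of 0.8 (0.851 to 0.896) and 5.7% (1.3% to 2.4%). The main counts of members called regulated by stroke, or differing between cell types, are also given without them. Most other counts, among them those of the further gene lists, include them. In sorted bulk RNA, fewer cycling cells and less RNA per cycling cell cannot be told apart.

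The promoters of the members were searched for the letters by which these programs are usually recognised. RefSeq windows (GRCm38.p6) were found for 28 of the 35 members, and the 250 bases before the annotated start were searched on both strands for an E2F-like motif (TTTNNCGC), a CCAAT box, bound by NF-Y, and TTTGAA, the cell cycle homology region bound by the MuvB core of the DREAM complex. The E2F-like motif stood in 4 of 11 replication members (36.4%), 2 of 6 G1 members (33.3%) and 1 of 11 mitotic members (9.09%), against 4.39% of all 27025 windows. A CCAAT box stood in 10 of 11 mitotic members (90.9%) and 8 of 11 replication members (72.7%), but in 1 of 6 G1 members (16.7%), against 34.5% of all windows. TTTGAA stood in 5 of 11 mitotic members (45.5%), 1 of 11 replication members (9.09%) and none of the 6 G1 members, against 16.3% of all windows. The windows of Mcm5, Mcm2 and Cdt1 are shown because their RNA is followed below in microglia, and those of Top2a and Ccnb2 because they show the CCAAT and TTTGAA letters of the mitotic genes. Each is read 5′ to 3′ on the strand of its gene, ends at the base before the start, and holds no annotated exon. Capitals mark the 3 motifs or their reverse complements.

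Mcm5 (chr8:75109259-75109508, plus strand): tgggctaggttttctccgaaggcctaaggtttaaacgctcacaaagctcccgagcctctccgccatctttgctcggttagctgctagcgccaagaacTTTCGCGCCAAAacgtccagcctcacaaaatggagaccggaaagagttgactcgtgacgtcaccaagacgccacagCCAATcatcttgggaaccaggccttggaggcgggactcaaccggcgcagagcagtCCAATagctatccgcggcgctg
Mcm2 (chr6:88898781-88899030, minus strand): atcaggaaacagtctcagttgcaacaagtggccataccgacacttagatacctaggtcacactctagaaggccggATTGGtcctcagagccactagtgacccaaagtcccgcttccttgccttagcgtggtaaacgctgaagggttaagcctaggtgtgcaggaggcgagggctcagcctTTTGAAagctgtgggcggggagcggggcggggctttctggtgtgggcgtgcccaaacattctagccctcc
Cdt1 (chr8:122567765-122568014, plus strand): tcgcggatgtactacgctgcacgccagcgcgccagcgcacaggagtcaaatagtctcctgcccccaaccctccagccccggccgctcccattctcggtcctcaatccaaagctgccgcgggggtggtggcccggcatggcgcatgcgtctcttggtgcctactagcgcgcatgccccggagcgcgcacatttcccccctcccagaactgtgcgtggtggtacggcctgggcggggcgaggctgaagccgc
Top2a (chr11:99024190-99024439, minus strand): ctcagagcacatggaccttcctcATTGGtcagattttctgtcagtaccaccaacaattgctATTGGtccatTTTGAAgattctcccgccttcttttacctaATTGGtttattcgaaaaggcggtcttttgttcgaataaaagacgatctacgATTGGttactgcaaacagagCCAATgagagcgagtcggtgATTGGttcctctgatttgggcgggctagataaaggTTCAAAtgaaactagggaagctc
Ccnb2 (chr9:70421555-70421804, minus strand): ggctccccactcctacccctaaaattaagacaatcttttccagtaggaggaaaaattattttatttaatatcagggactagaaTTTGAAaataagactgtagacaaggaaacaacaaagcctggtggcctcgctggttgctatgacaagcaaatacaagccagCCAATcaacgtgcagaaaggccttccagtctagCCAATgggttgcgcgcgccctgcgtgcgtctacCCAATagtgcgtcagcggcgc

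The Mcm5 window held 2 overlapping E2F-like matches, one on each strand, and 2 CCAAT boxes. Mcm2 held 1 CCAAT box and 1 TTTGAA, and Top2a held 6 CCAAT boxes and 2 TTTGAA. Ccnb2 held 3 CCAAT boxes and 1 TTTGAA. None of these letters was found in the Cdt1 window, which says nothing about the factors that act there.

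The levels differed between the roles, with exceptions within them. Of the 672 values of the mitotic genes, 257 were 0 and 398 were at most 10 normalized counts, and the highest was 226. The G1 genes had 31 values of 0 among 432 and reached 7524, and the replication genes had 40 values of 0 among 576 and reached 2799. The median mitotic value was 0 in both hemispheres of pericytes and in contralateral endothelial cells, 15 in contralateral astrocytes and 6 in contralateral microglia. The plot of levels in each group shows the same division, with a mostly dark upper block and mostly bright lower blocks. Among the exceptions, the replication gene Cdc6 had a median of 0 in both hemispheres of endothelial cells and pericytes. The mitotic gene Cdc20 had a median of 63 in contralateral endothelial cells.

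**Figure D1:**
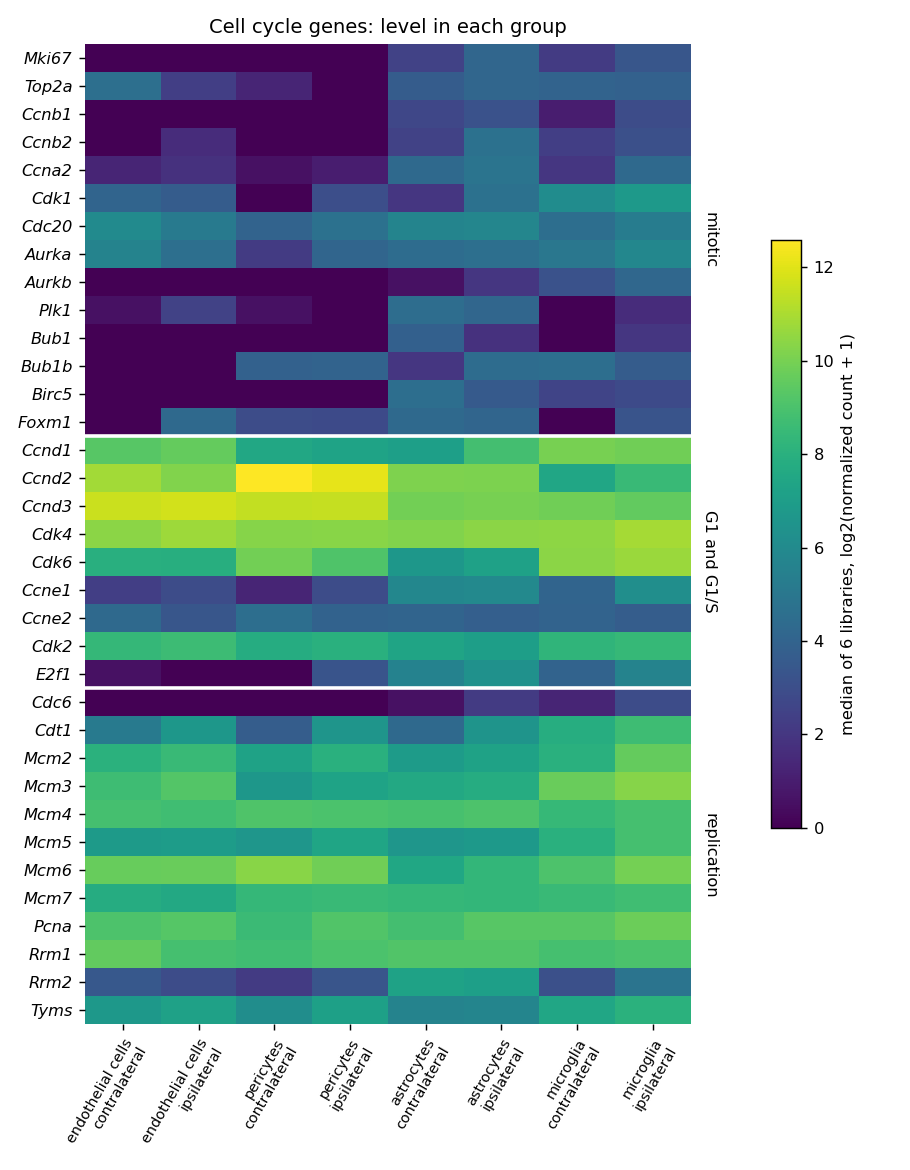
Median of 6 libraries for each of the 35 genes (rows) in each of the 8 groups (columns), as log2(normalized count + 1) in colour. Most of the 14 mitotic genes are low in all groups and many lie at 0 in endothelial cells and pericytes, and Ccnd2 in contralateral pericytes is the brightest cell.

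Mki67, which encodes the proliferation antigen Ki-67, was 0 in 5 of 6 contralateral endothelial libraries and in all 6 ipsilateral pericyte libraries. It reached 18 in contralateral astrocytes and 84 in ipsilateral astrocytes, where the 6 values were 0, 84, 31, 54, 3 and 0, and in microglia it reached 33 contralaterally and 25 ipsilaterally. Aurkb, the kinase of the chromosomal passenger complex, was at 0 in all 6 contralateral libraries of both endothelial cells and pericytes. Only astrocytes had enough signal for all 14 mitotic genes to enter the test, for which the 12 libraries of a cell type had to average 10 normalized counts or more, and 5 entered it in endothelial cells, 6 in pericytes and 8 in microglia. A change of a mitotic gene in endothelial cells or pericytes may therefore not have been detectable at these counts.

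The contralateral hemispheres were compared first, to see where each gene was high outside the lesion. In a limma fit of all 48 libraries, with an F-test over the 4 contralateral groups and Benjamini-Hochberg adjustment over all genes, 19 of the 28 members tested differed between cell types, against 78.7% of the 15003 genes tested, so the cell cycle genes did not stand out from the table in this respect. Without both libraries that stood apart, 18 of 29 differed. Among the 19 were 4 of 8 mitotic, 7 of 9 G1 and 8 of 11 replication members. Astrocytes had the highest mean of 7 of the 19, microglia of 6, and endothelial cells and pericytes of 3 each. This ranks means only, and for several members the step to the second cell type did not pass (for Mcm4, astrocytes against pericytes, limma adjusted p = 0.985).

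Ccnd2, which encodes cyclin D2, had the widest range of the G1 genes. Its contralateral normalized counts were 6873, 5412, 6206, 6102, 7524 and 5750 in pericytes, 1515, 3657, 2295, 2157, 1254 and 1113 in endothelial cells, 1431, 1270, 754, 1099, 810 and 1147 in astrocytes and 165, 231, 49, 183, 239 and 151 in microglia. All pericyte libraries lay above all others and all microglial libraries below, while those of endothelial cells and astrocytes overlapped. Contralateral microglia were lower than pericytes by 5.36 on the log2 scale (SE 0.27, limma adjusted p = 7.89e-21), and each step of the order pericytes, endothelial cells, astrocytes, microglia passed the test (adjusted p = 6.01e-07, 0.0122 and 7.09e-12). Pericyte libraries also carried smooth muscle RNA, since Acta2, Myh11 and Cnn1 summed to 303141 to 469226 normalized counts contralaterally, against at most 6055 in the contralateral libraries of the other cell types, and its part in the Ccnd2 level was not tested.

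Ccnd1 and Ccnd3, the other D cyclins, followed other orders. Ccnd1 was highest in contralateral microglia (median 1028 normalized counts, 321 to 1260) and endothelial cells (628, 191 to 1929), which did not differ from each other past the threshold (limma adjusted p = 0.544), and was low in pericytes (188, 37 to 447) and astrocytes (139, 84 to 253). Ccnd3 had a median of 2722.5 in pericytes and 3090 in endothelial cells, where replicate 2, the library that stood apart, had 763 and the others 2550 to 3587. It was lower in astrocytes (951.5) and microglia (922.5), and the step from endothelial cells to astrocytes passed the test (adjusted p = 0.000104), while neither pericytes and endothelial cells nor astrocytes and microglia differed past the threshold (0.759 and 0.919). Per kb of exon, the leading contralateral D cyclin was Ccnd2 in pericytes (median 654.1 normalized counts per kb) and astrocytes (119.4, beside 108.4 for Ccnd3), Ccnd3 in endothelial cells (352.1) and Ccnd1 in microglia (218.3, against 18.49 for Ccnd2).

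**Figure D2:**
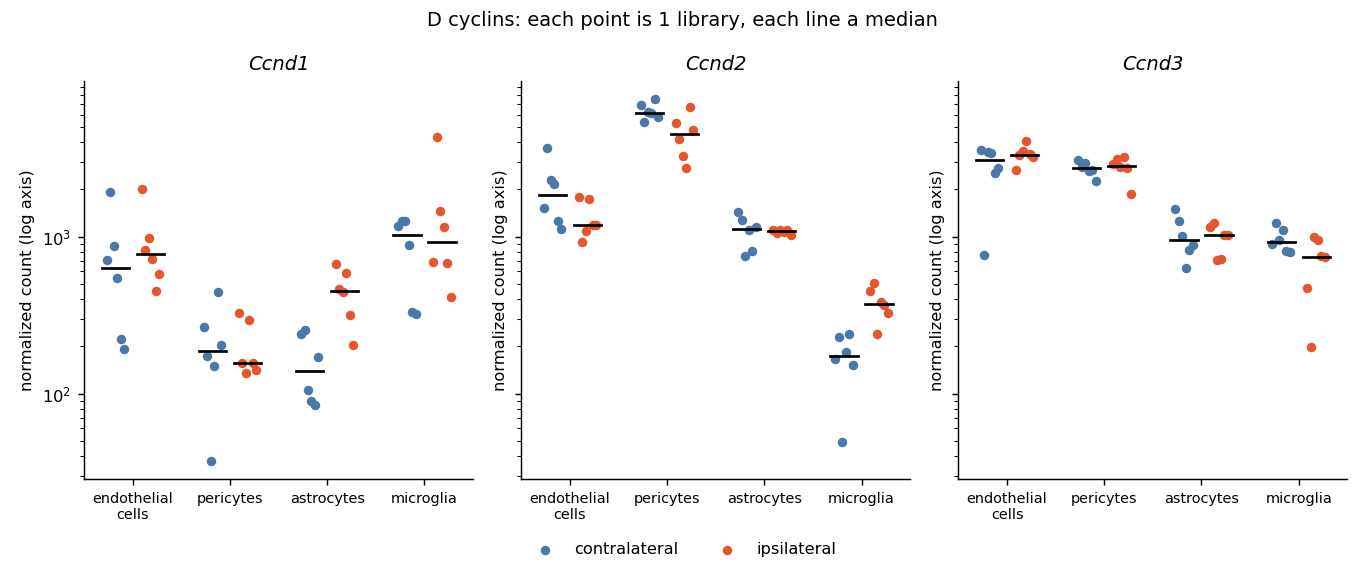
Normalized counts (log axis) of Ccnd1, Ccnd2 and Ccnd3 in every library, by cell type, contralateral in blue and ipsilateral in orange, with medians as lines. Ccnd2 runs from 5412 to 7524 in contralateral pericytes down to 49 to 239 in contralateral microglia, and levels are to be compared between groups within a gene.

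Of the kinases that D cyclins bind, Cdk4 was even and Cdk6 was not. Contralateral medians of Cdk4 were 1176 to 1392 normalized counts in the 4 cell types, with no difference past the threshold (F-test adjusted p = 0.28). Cdk6 had a contralateral median of 1370.5 in microglia (1162 to 1665), 958 in pericytes (284 to 1085), 248 in endothelial cells (142 to 374) and 102 in astrocytes (40 to 129). Each step of this order passed the test (adjusted p = 0.0231, 9.24e-05 and 0.000134). Cdk2, the kinase of cyclins E and A, differed over a narrower range (F-test adjusted p = 0.00385), with means 0.99 apart on the log2 scale between endothelial cells and astrocytes.

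Among the mitotic genes, Cdk1, the kinase that drives entry into mitosis, had the largest contralateral difference. Its normalized counts were 58, 84, 95, 57, 80 and 58 in contralateral microglia, 25, 0, 30, 0, 16 and 15 in endothelial cells, 0, 56, 0, 26, 0 and 0 in pericytes and 15, 11, 5, 0, 1 and 0 in astrocytes. Every microglial library lay above every other contralateral library, and microglia differed from pericytes by 4.39 on the log2 scale (SE 1.17, adjusted p = 0.00156). Ccna2 and Foxm1, for cyclin A2 and for a transcription factor of the mitotic genes, had their highest contralateral mean in astrocytes, and so did E2f1 and Ccne1 (F-test adjusted p = 0.00736, 0.0214, 0.00116 and 0.0351). The step from astrocytes to the second cell type passed only for Ccna2 (microglia, limma adjusted p = 0.0178). It did not pass for Foxm1 (pericytes, 0.557), E2f1 (microglia, 0.245) or Ccne1 (microglia, 0.112).

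Rrm2, the small subunit of ribonucleotide reductase, had the largest contralateral difference among the replication genes. Its normalized counts were 91, 215, 131, 175, 174 and 86 in contralateral astrocytes, 29, 0, 74, 0, 9 and 11 in endothelial cells, 0, 47, 5, 0, 2 and 10 in pericytes and 11, 0, 20, 4, 22 and 0 in microglia. The astrocyte libraries all lay above the others, and the difference from pericytes was 4.91 on the log2 scale (SE 1.15, adjusted p = 0.000416). Its partner Rrm1, the large subunit, was present in all 4 cell types at contralateral medians of 423.5 to 760.5 normalized counts. Astrocyte libraries also held RNA of oligodendrocyte precursors, whose 8 markers (among them Pdgfra, Olig2 and Sox10) summed to 3583 to 18483 normalized counts contralaterally and 5657 to 16825 ipsilaterally, against at most 2956 in any library of the other cell types. None of the 8 was at 0 in all 6 astrocyte libraries of a hemisphere. In astrocyte libraries the 6 neural progenitor markers summed to 185 to 674 normalized counts contralaterally (median 394) and 209 to 605 ipsilaterally (median 349). Their contralateral medians in the other cell types were 0 to 20, and the highest sum there was 388, in endothelial cells. The part of RNA of either kind in the astrocyte levels of Rrm2, Ccna2, Foxm1, E2f1 and Ccne1 was not tested.

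The 6 subunits of the MCM helicase were not in step with each other. Mcm6 was highest in contralateral pericytes (median 277 normalized counts per kb of exon) and lowest in astrocytes (38.68), a difference of 2.77 on the log2 scale (SE 0.35, adjusted p = 7e-09), whereas Mcm3 was highest in microglia (222.4) and lowest in pericytes (27.05), a difference of 3.52 (SE 0.58, adjusted p = 1.5e-06). Mcm4 spanned 95.85 to 155.6 and Mcm7 spanned 50.38 to 83.94 over the same 4 contralateral groups. Mcm2 and Mcm5 did not differ past the threshold (F-test adjusted p = 0.221 and 0.0719). Cdt1, which loads the helicase together with Cdc6, was higher in contralateral microglia (202 to 367 normalized counts) than in endothelial cells (3 to 119, adjusted p = 0.00362), pericytes (0 to 80, adjusted p = 2.3e-05) and astrocytes (0 to 48, adjusted p = 3.22e-05), and Cdc6 itself was never above 68 and was too low to be tested in this fit.

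**Figure D3:**
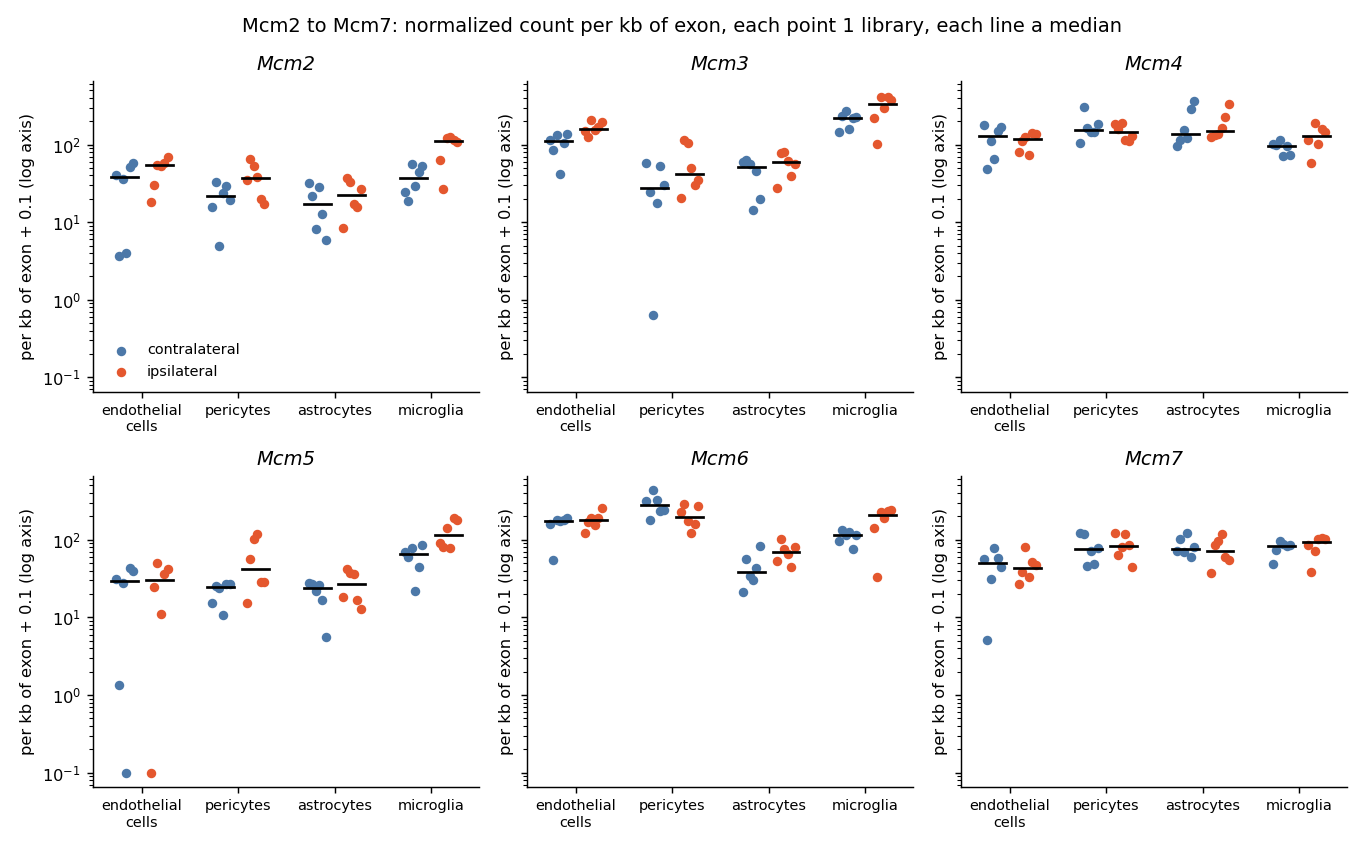
Normalized counts per kb of exon, plus 0.1 (log axis), of Mcm2 to Mcm7 in every library, contralateral in blue and ipsilateral in orange, with medians as lines. In microglia the ipsilateral medians of Mcm2 (111.8 against 36.44) and Mcm5 (116.1 against 64.49) lie above the contralateral ones, and replicate 2 is the lowest ipsilateral microglial point for Mcm2, Mcm3, Mcm4, Mcm6 and Mcm7.

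The effect of stroke was tested within each cell type with limma on log2(normalized count + 1), 6 ipsilateral against 6 contralateral libraries, and a gene was called regulated at an adjusted p of at most 0.05 over all genes tested, a change of at least 1.5-fold and more than 10 normalized counts in all 6 libraries of a hemisphere. In microglia 2 of the 29 members tested were called, both upward, against 4.29% of the 13300 genes tested called upward and 10.6% called in either direction. None of the 24 members tested in endothelial cells, of the 26 in pericytes or of the 34 in astrocytes was called, against 0.491%, 1.02% and 0.341% of the genes tested in these cell types. At an unadjusted p under 0.05 limma gave 7 members in microglia, all higher ipsilaterally (background 10.6% in that direction and 28.0% in either), 2 in endothelial cells (11.9%), 4 in pericytes (15.4%) and 4 in astrocytes (9.28%). The counts are small, and with both directions counted they were near the share of all genes in each cell type. Because the 2 hemispheres of a replicate came from the same pool of mice, the fit was repeated with the replicate as a block, which called 4 members in microglia (5.23% of all genes upward) and 1 in astrocytes (1.19% upward).

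**Figure D4:**
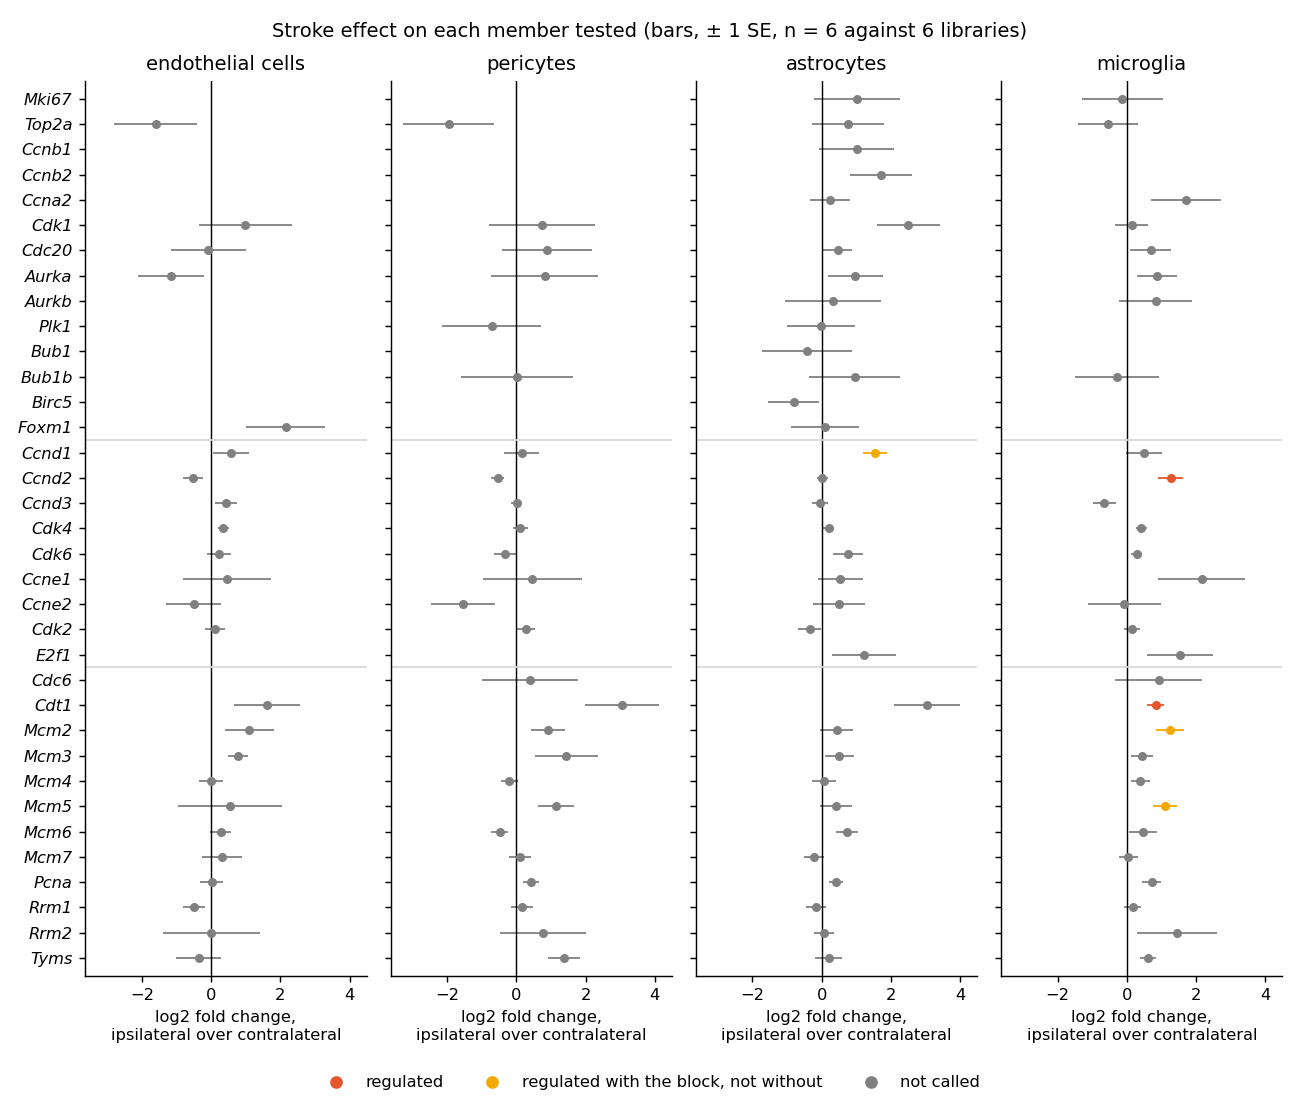
Log2 fold change of ipsilateral over contralateral for each member tested in each cell type, with bars of 1 SE and n = 6 against 6 libraries. Ccnd2 and Cdt1 in microglia are called (red), Mcm2 and Mcm5 in microglia and Ccnd1 in astrocytes are called with the replicate block and not without it (yellow), and the long bars belong to members with low counts.

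In microglia, cyclin D2 RNA rose. Ccnd2 was 165, 231, 49, 183, 239 and 151 in the contralateral libraries and 448, 506, 239, 384, 365 and 327 in the ipsilateral ones. It was higher ipsilaterally in 6 of 6 pairs, and the groups only touched, since the lowest ipsilateral value equalled the highest contralateral one. The mean went from 169.7 ± 68.8 to 378.2 ± 93.2 (SD, n = 6), a log2 fold change of 1.27 (SE 0.35, limma adjusted p = 0.0322). Even so it stayed below every library of the other 3 cell types, in which Ccnd2 was never under 754. The call was lost without replicate 1, 4, 5 or 6, with adjusted p of up to 0.0946, while the log2 fold change stayed between 1.23 and 1.4 in these fits. With replicates 1 to 4 only it was lost as well (log2 fold change 1.47, limma adjusted p = 0.0982).

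Cdt1, the licensing factor that is destroyed once replication begins, rose as well. It was 229, 367, 205, 202, 233 and 222 in contralateral and 272, 347, 632, 560, 406 and 425 in ipsilateral microglia. It was higher in 5 of 6 pairs, and the groups overlapped through replicate 2 on the contralateral side. The mean went from 243 ± 62 to 440.3 ± 133.8 (SD, n = 6), a log2 fold change of 0.83 (SE 0.24, limma adjusted p = 0.0402). The highest ipsilateral value, 632, was in replicate 3, the library of lowest depth. The call was lost without replicate 3, 4, 5 or 6 (adjusted p of up to 0.172) and with the replicate as a fixed effect (0.0731). It was also lost with replicates 1 to 4 only (0.19), without the filter on low values (0.0606) and in the joint fit of 48 libraries (0.677).

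Mcm2 and Mcm5, subunits of the helicase that Cdt1 loads, missed the threshold narrowly. They were called with the block, a pseudocount of 10, a mean of at least 50, rescaling, and without replicate 2. Neither was called without replicate 1, 3, 4, 5 or 6 (limma adjusted p of up to 0.183 for Mcm2 and 0.156 for Mcm5). Replicates 1 to 4 only (0.162 and 0.225), no filter (0.0791 and 0.0748) and the joint fit of 48 libraries (0.205 and 0.55) did not call them either. Mcm2 was 170, 131, 391, 201, 306 and 367 in contralateral and 435, 185, 840, 876, 798 and 757 in ipsilateral microglia. All ipsilateral libraries but replicate 2 lay above all contralateral ones, and all 6 pairs went upward, with a log2 fold change of 1.25 (SE 0.39, limma adjusted p = 0.0541, and 0.0319 with the block). Mcm5 was 276, 239, 310, 88, 180 and 337 in contralateral and 366, 326, 561, 312, 765 and 716 in ipsilateral microglia. It was higher in 6 of 6 pairs, with some overlap of the groups, and its log2 fold change was 1.11 (SE 0.35, limma adjusted p = 0.0506, and 0.0321 with the block). Without ipsilateral replicate 2, the library that stood apart, 8 members were called upward in microglia, namely Ccnd2, Ccne1, Cdt1, Mcm2, Mcm3, Mcm4, Mcm5 and Mcm6, of 30 tested, against 5.76% of all genes upward, and Mcm2 had a log2 fold change of 1.57 (adjusted p = 0.00251).

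Tyms and Pcna, for thymidylate synthase and for the sliding clamp of DNA polymerase, were not called although their groups did not overlap. Tyms was 157 to 200 in contralateral and 207 to 409 in ipsilateral microglia (log2 fold change 0.62, SE 0.23, limma adjusted p = 0.0896), and Pcna was 590 to 729 and 796 to 2799 (0.72, SE 0.27, adjusted p = 0.0977), with the highest values of both in replicate 2. Without ipsilateral replicate 2 the log2 fold change of Tyms was 0.50 (adjusted p = 0.0791) and that of Pcna 0.44 (adjusted p = 0.0337, under the 1.5-fold limit). All ipsilateral libraries lay above all contralateral ones for 3.78% of the genes tested in microglia, beside these 2 of 29 members. In all 6 pairs 6 of 29 members were higher ipsilaterally (Ccnd2, Cdk6, Mcm2, Mcm5, Pcna and Tyms), against 9.49% of the genes tested. The 12 replication genes had a median log2 fold change of 0.67 in microglia, and 12 of 12 were above 0, against a median of -0.184 over all genes tested, of which 40.5% were above 0. The range within the list was wide, since Mcm7 went from a mean of 349.8 to 372.7 and Rrm1 from 525.8 to 580.

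**Figure D5:**
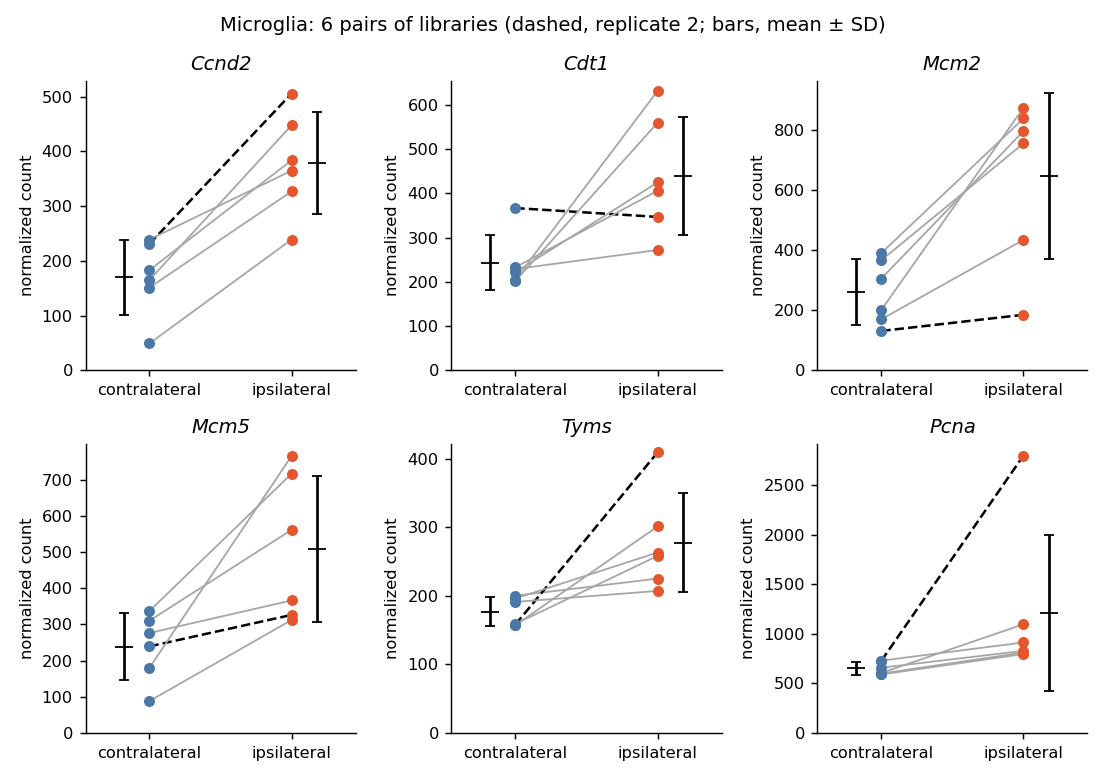
Normalized counts of 6 members in microglia, contralateral in blue and ipsilateral in orange, with a line for each of the 6 replicate pools and bars for the mean ± SD. Replicate 2 (dashed) is the highest ipsilateral point for Ccnd2, Tyms and Pcna and the lowest for Mcm2.

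No mitotic gene passed the threshold in microglia. Of the 8 tested, none was called and none had an unadjusted p under 0.05. Cdk1 was 58, 84, 95, 57, 80 and 58 contralaterally and 74, 119, 130, 16, 103 and 116 ipsilaterally, so that 5 of 6 pairs went upward and replicate 4 went down. The summed level of the 14 mitotic genes was 179 to 378 in contralateral and 248 to 462 in ipsilateral microglia. These ranges overlapped, and the sum was higher ipsilaterally in 5 of 6 pairs. Whether mitotic and replication genes differed in their change was not tested.

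Microglial libraries from the ischemic side also differed in markers of other cells. The 6 neutrophil markers summed to 90 to 1042 normalized counts contralaterally and 1447 to 18058 ipsilaterally, with the highest value in replicate 2, and the 7 markers of monocytes and macrophages to 8204 to 12975 and 8622 to 24244. No marker of either list was at 0 in all ipsilateral microglial libraries. The summed level of the 4 microglial markers was 180699 to 227678 contralaterally and 91419 to 163197 ipsilaterally. Their part in the changes of Ccnd2, Cdt1, Mcm2 and Mcm5 was not tested.

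In astrocytes, Ccnd1, for cyclin D1, was the member with the smallest p. It was 238, 253, 106, 89, 84 and 172 contralaterally and 671, 464, 443, 584, 316 and 204 ipsilaterally. It was higher in 6 of 6 pairs, and only ipsilateral replicate 6 fell within the contralateral range. The mean was 157 ± 75.6 and 447 ± 170.6 (SD, n = 6), with a log2 fold change of 1.54 (SE 0.36). The limma adjusted p was 0.122 without and 0.0164 with the replicate block. Cdt1 was 6, 48, 37, 0, 1 and 32 contralaterally and 63, 178, 127, 119, 28 and 54 ipsilaterally, again higher in 6 of 6 pairs, but did not pass (log2 fold change 3.05, SE 0.95, adjusted p = 0.308, and 0.0592 with the block). Cdk1 (mean 5.33 and 26.7) and Ccnb2 (7.17 and 20.5), for the mitotic kinase and a cyclin that binds it, and Pcna (456.5 and 624) were also higher in all 6 pairs without passing (adjusted p = 0.418, 0.597 and 0.579). In all, 5 of 34 members were higher in all 6 pairs, against 5.02% of the genes tested. Rrm2, high in astrocytes to begin with, was 129, 115, 108, 188, 149 and 194 ipsilaterally, within its contralateral range of 86 to 215. The oligodendrocyte precursor markers given above overlapped between the hemispheres of the astrocyte libraries. The 6 neutrophil markers summed to 1 to 911 normalized counts in contralateral and 218 to 5159 in ipsilateral astrocyte libraries, and the 7 markers of monocytes and macrophages to 35 to 3031 and 514 to 7939. No marker of either list was at 0 in all 6 ipsilateral libraries, and their part in the Ccnd1 and Cdt1 values was not tested.

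In pericytes, the abundant Ccnd2 was lower on the ischemic side of each pair without being called. It was 6873, 5412, 6206, 6102, 7524 and 5750 contralaterally and 5297, 4188, 3243, 2755, 6705 and 4808 ipsilaterally. The groups overlapped although 6 of 6 pairs went down, and the log2 fold change of -0.54 (SE 0.20) did not pass (limma adjusted p = 0.207). The smooth muscle markers of the same libraries went from 303141 to 469226 down to 137721 to 320241 normalized counts, and their part in the Ccnd2 difference was not tested. Tyms was higher in 6 of 6 pairs (mean 72.2 and 168.7, adjusted p = 0.178). These were 1 of 26 members lower and 1 of 26 higher in all 6 pairs, against 6.86% and 4.55% of the genes tested. Cdt1 went from 15, 1, 9, 0, 19 and 80 to 76, 161, 111, 195, 11 and 52, that is, upward in replicates 1 to 4 and downward in 5 and 6 (log2 fold change 3.06, SE 1.07, adjusted p = 0.182). Neutrophil markers summed to 0 to 1226 in contralateral and 41 to 12948 in ipsilateral pericyte libraries. The markers of monocytes and macrophages summed to 14 to 4148 and 16 to 37021, and the microglial markers to 249 to 11003 and 267 to 28388. The part of such RNA in the pericyte values, among them those of Cdt1, was not tested.

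In endothelial cells the nearest to the threshold were Mcm3 (mean 384.2 and 621.7 normalized counts, log2 fold change 0.77, SE 0.29) and Cdk4 (1328 and 1692, 0.35, SE 0.16), both higher in 6 of 6 pairs with limma adjusted p of 0.295 and 0.393. Members higher in all 6 pairs were thus 2 of 24, against 4.77% of the genes tested. Ccnd2 was 1782, 919, 1086, 1734, 1186 and 1182 ipsilaterally, within or below the contralateral values given above. Mcm2 was 277, 25, 247, 27, 360 and 398 contralaterally and 127, 209, 382, 368, 399 and 476 ipsilaterally, and Mcm5 was 124, 5, 109, 0, 172 and 158 and then 0, 98, 197, 44, 145 and 167. The spread of both within the contralateral group exceeded the difference between the groups. Without contralateral replicate 2 there was still no member called. Neutrophil markers summed to 1 to 1612 in contralateral and 92 to 9837 in ipsilateral endothelial libraries. The markers of monocytes and macrophages summed to 207 to 6817 and 405 to 19908, and the microglial markers to 192 to 7629 and 276 to 21121. The part of such RNA in the endothelial values was not tested.

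Whether the effect of stroke differed between cell types was tested directly, as an interaction in the fit of 48 libraries. Ccnd2 was the only member of the 28 tested whose effect differed (F-test adjusted p = 0.0147), against 0.660% of all genes tested. Its effect in microglia exceeded that in pericytes by 1.81 on the log2 scale (SE 0.38, adjusted p = 0.0126) and that in endothelial cells by 1.79 (SE 0.38, adjusted p = 0.0184). The difference from astrocytes, 1.245 (SE 0.38), did not pass (limma adjusted p = 0.197). So cyclin D2 RNA rose in the cell type in which it was lowest, and was not called in the pericytes, in which it was highest. The result was also obtained without both libraries that stood apart, but not without replicate 1, 3, 4 or 6, where no member passed. For Ccnd1, Cdt1, Mcm2 and Mcm5 no difference of the stroke effect between cell types passed the threshold, so that their calls in one cell type do not show that the others differ.

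The rest of the pathway was described by 4 further lists. Of the CDK inhibitors and pocket proteins 10 of 11 genes were in the table, and in microglia 1 rose and 1 fell of 9 tested. Cdkn1a, for the inhibitor p21, was 2740 to 6846 in contralateral and 6063 to 16539 in ipsilateral microglia (log2 fold change 0.94, SE 0.28, limma adjusted p = 0.0416), with the highest value in replicate 2, and without that library it was still called (0.73, adjusted p = 0.0343). Cdkn1c, for the inhibitor p57, was 112 to 161 contralaterally and 41 to 83 ipsilaterally, without overlap (-1.09, SE 0.30, adjusted p = 0.0293). It was also lower in 6 of 6 endothelial pairs, 568 to 1007 against 231 to 534, where it was called with the block and not without it (adjusted p = 0.0737, and 0.0405 with it). Each of these microglial calls held in 1 of the 6 fits that left out a replicate.

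Of the 17 genes of the E2F family, Myb, Myc and MuvB, 12 were tested in microglia and 1 rose. Tfdp1, the dimerisation partner of E2F proteins, was 121 to 240 contralaterally and 208 to 438 ipsilaterally (log2 fold change 0.87, SE 0.26, adjusted p = 0.0414). Genes called with the block and not without it were E2f3 in microglia (mean 233.2 and 108.2, adjusted p = 0.0433), Myc in astrocytes (236 and 606.7, 0.0219) and Lin52, a MuvB subunit, in pericytes (475.7 and 264.5, 0.0426).

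Of 45 further S phase genes, 44 were tested in microglia, 3 rose and none fell, and the median log2 fold change was 0.29. Orc1, a subunit of the origin recognition complex to which Cdc6 and Cdt1 bring the helicase, was 0, 1, 10, 4, 5 and 9 in contralateral and 25, 54, 88, 32, 33 and 38 in ipsilateral microglia. The groups did not overlap, and the adjusted p was 0.00805 and stayed at or under 0.0335 without any single replicate. The contralateral values rest on few reads, so the size of the change is poorly known. Orc6, another subunit, was 72 to 136 contralaterally and 182 to 411 ipsilaterally (log2 fold change 1.01, SE 0.27, adjusted p = 0.0277), and Rfc4, of the clamp loader that places PCNA, was 37 to 179 and 179 to 528 (1.28, SE 0.39, adjusted p = 0.0473).

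Of 63 further G2 and M phase genes, 42 were tested in microglia and 2 rose. Tubb5, a β-tubulin, was 2291 to 3125 in contralateral and 3904 to 6154 in ipsilateral microglia (log2 fold change 0.90, SE 0.15, adjusted p = 0.00251) and was called without any single replicate. Cks1b, a small protein bound to cyclin-dependent kinases, was 66 to 183 and 175 to 477 (1.36, SE 0.36, adjusted p = 0.0274). Neither is used in mitosis alone. In endothelial cells, pericytes and astrocytes no gene of the 4 lists was called without the block. Of the 8 calls in microglia, those of Orc1 and Tubb5 held without each single replicate. Those of Cdkn1a, Cdkn1c, Tfdp1, Orc6, Rfc4 and Cks1b were lost at least without replicate 3, 4 or 6, with adjusted p of up to 0.183. The calls of Cdkn1a and Cdkn1c each held in only 1 of the 6 such fits. Rfc4 was also lost without ipsilateral replicate 2 alone (0.0511). Together the calls in these lists in microglia were 7 upward and 1 downward of 107 tested, against 4.29% and 6.27% of all genes.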

How the data were processed

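Libraries were made from about 250 pg of total RNA with the SMART-Seq HT kit, which does not mark strand, and were sequenced as 75 nt single reads. As the study's methods and the submitters' processing notes give them, the authors trimmed reads with Trimmomatic 0.38, aligned them to GRCm38 (mm10) with STAR 2.6.1d, counted unique reads on exons per gene with featureCounts 1.6.3 and normalized the counts with DESeq2 1.18.1. The deposited values behave as scores: the authors divided counts by size factors and rounded them to whole numbers, so that no count test was run. Per-library depth and the value of 3 reads were estimated from the spacing of low values and cover counting error only.

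The 35 members, the 4 further lists and the markers were chosen with earlier results of these data known. Values are given per library for members called in at least 1 cell type with or without the block and for the member with the widest contralateral range in each role, and from the further lists at most 5 called genes per cell type were named. Tests used limma 3.58.1 in R 4.3.3 (lmFit, eBayes with a trend, two-sided, Benjamini-Hochberg adjustment over all genes with a mean of at least 10) on log2(normalized count + 1). Fold changes of low genes therefore depend on the 1 added. Where libraries of a group are at or near 0, fold changes can exceed the change of the group means, as for Cdt1 in astrocytes and pericytes. Within-cell-type fits used 12 libraries, and the contralateral and interaction F-tests used all 48, both without a block. The study names DESeq2 for its tests and its design formula is not given in the sources used here. The alternatives were pseudocounts of 0.1 and 10, no filter, a mean of at least 50, the replicate block (random, or as a fixed effect), rescaling, the joint fit, no expression or fold rule, leaving out each replicate, and replicates 1 to 4 only. Leaving out a library that stood apart was added after seeing the data.

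The replicate number pairs the hemispheres, since both come from the same pool of mice. Deviations from the group means correlated at a mean of 0.227, 0.227, 0.38 and 0.135 for same-numbered libraries of endothelial cells, pericytes, astrocytes and microglia, against -0.0387, -0.0449, -0.0759 and -0.0258 for others. Replicates are pools of mice, and p-values measure the spread between pools. The fits were tested on simulated data. Promoter windows and their positions are from RefSeq (GRCm38.p6), and exon lengths and annotated exons from GENCODE M21 (GRCm38). Reads shared by genes were not counted by the authors.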

Additional observations from a re-analysis of the deposited data

Results flagged for a closer look

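The stroke effect on Ccnd2 differed between cell types in a test of the difference itself (limma interaction F-test, adjusted p = 0.0147, and 0.00676 with the replicate block). It was larger in microglia than in pericytes by 1.81 and than in endothelial cells by 1.79 on the log2 scale, with 6 of 6 microglial pairs higher and 6 of 6 pericyte pairs lower on the ischemic side. The difference between microglia and astrocytes, 1.245, did not pass (limma adjusted p = 0.197).

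Single libraries lay far from the other 5 of their group in 5 of 56 groups examined (7 members in 8 groups). Chance alone gives about 1 in 20 only where values are normally distributed, which was not tested for these normalized counts. Each of the 5 values was the highest of its group, which a skew of counts towards high values can also give. The number of groups is therefore not read as an excess over chance. The gap to the nearest library as a share of the whole range of the group was 0.663 for Ccnd1 in ipsilateral endothelial cells replicate 1 (2006 normalized counts) and 0.732 for Ccnd1 in ipsilateral microglia replicate 2 (4288). It was 0.762 for Cdt1 in contralateral pericytes replicate 6 (80), 0.812 for Cdt1 in contralateral microglia replicate 2 (367) and 0.787 for Rrm2 in contralateral pericytes replicate 2 (47). Of these, 1 is in a library that stood apart as a whole, ipsilateral microglia replicate 2.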

How the results depend on the processing

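In endothelial cells and pericytes 0 members were called in each alternative. The count in microglia, 2 as reported, was 4 with a pseudocount of 10, with a mean of at least 50, with rescaling and with the random replicate block, 3 with the block as a fixed effect, and 1 without the filter and in the joint fit. It was 0 to 6 when 1 replicate was left out (0 without replicate 4, 5 or 6, and 6 without replicate 2), 0 with replicates 1 to 4 only and 8 without ipsilateral replicate 2 alone. These fits used fewer libraries. In astrocytes 1 member, Ccnd1, was called with the replicate block, random or fixed, and 0 in the other alternatives. Mcm2 and Mcm5 were gained in microglia with the replicate block and in the other alternatives that called 4, with the fixed block Cdt1 was lost there (adjusted p = 0.0731), and the block changed no other ipsilateral against contralateral call of a member. The number of members that differed between contralateral cell types, 19 as reported, was 11 with replicates 1 to 4 only and 14 to 18 without 1 replicate. The number whose stroke effect differed, 1 as reported, was 0 to 2 without 1 replicate and 0 with replicates 1 to 4 only. The log2 fold changes of Ccnd1 in astrocytes and of Ccnd2, Cdt1, Mcm2 and Mcm5 in microglia did not change sign in these alternatives. Other causes of these shifts were not tested. Of the 672 values of the mitotic genes 398 were at most 10 normalized counts, which limits what could be detected for them.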
